A study of Mus musculus with 16 samples.

Results

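The genes described here are 7 members of the angiotensin, aldosterone and endothelin systems, taken as a list and read from the gene counts of mouse left ventricle: Agt, Ace, Agtr1a, Nr3c2, Edn1, Ednra and Ednrb. They are 7 of the 56953 genes in the count table, and 7 of 7 passed the filter on low counts. The data come from 16 mice of the Bl6J background, 4 in each of 4 groups, and each mouse gave 1 library of polyadenylated RNA. Mice of 2 groups were wild type (WT), and those of the other 2 carried on both alleles the P635L mutation of RBM20, a splicing factor of heart muscle. At 4 weeks of age every mouse had received 1e12 viral genomes of an AAV9 vector through the tail vein, and hearts were collected 12 weeks later at 16 weeks. The control virus (Ctr) carried iCre, a Cre recombinase, joined by T2A to eGFP behind the CAG promoter, which is active in most cell types. The other virus carried the cDNA of Tnpo3, a receptor for nuclear import. The promoter of the Tnpo3 virus is not given in the sources used here, and all 4 groups, the wild-type controls included, carry an AAV9 vector. The groups are called WT Ctr and P635L Ctr with the control virus, and WT Tnpo3 and P635L Tnpo3 with the other. Males and females were used, and the sex of single mice is not given.

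In the renin-angiotensin system, angiotensinogen (Agt) is cut by renin to angiotensin I, and angiotensin-converting enzyme (Ace) cuts that to angiotensin II, which acts mainly through the AT1 receptor (Agtr1a in most mouse tissues) and stimulates adrenal release of aldosterone. Aldosterone binds the mineralocorticoid receptor (Nr3c2), a nuclear receptor that in heart muscle cells is also occupied by glucocorticoids. Endothelin-1 (Edn1), a constrictor peptide released by endothelial cells, acts on the ETA receptor (Ednra) of smooth muscle and heart muscle cells and on the ETB receptor (Ednrb), which endothelial cells also carry. ACE inhibitors, AT1 receptor blockers and mineralocorticoid receptor antagonists are standard drugs for heart failure.

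Library totals ran from 28493249 to 85922669 counts with a median of 39602369. In 3 libraries (WT Ctr replicates 2 and 4 and WT Tnpo3 replicate 4) 1 gene, ENSMUSG00000119584, took 19.96% to 22.65% of the counts, against at most 5.3% for the top gene elsewhere. Xist, a transcript of female cells, had more counts than the Y-linked genes in WT Ctr replicate 4 and WT Tnpo3 replicates 2 and 4, and in 0 of the 8 P635L libraries. Tnpo3 was at 231 CPM or more in the 8 libraries with its virus and at 49.4 CPM or less in the other 8. CPM are counts scaled to library size with TMM (trimmed mean of M-values) factors. Of 5 markers of atrial muscle, Bmp10 was under 0.5 CPM in all libraries, Myl7 reached 1.43 CPM, Sln 1.03 CPM and Myl4 8.62 CPM. The fifth, Nppa, which encodes a natriuretic peptide that stressed ventricle also makes, was at 148 to 400 CPM in WT Ctr, 5130 to 9800 CPM in P635L Ctr and 916 to 4510 CPM in P635L Tnpo3. In whole ventricle, fewer cells of a type and less RNA per cell cannot be told apart.

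Per length, Ace and Agtr1a were the most abundant members in each group. In WT Ctr the level of Ace was 12.6 ± 2.23 RPKM (CPM per kilobase of exon; SD, n = 4) and that of Agtr1a 10.3 ± 1.53 RPKM, and their libraries overlapped. Ednra followed at 5.20 RPKM, then Ednrb at 4.04, Nr3c2 at 2.50, Edn1 at 2.4 and Agt at 1.91 RPKM, each overlapping the next. In P635L Ctr the gap at the top was wider, since Ace stood at 37.5 ± 5.91 RPKM, with no library in the range of Agtr1a at 9.30 ± 0.717 RPKM (SD, n = 4 each). The receptors for endothelin stood in the reverse order there, with Ednrb at 4.30 RPKM above Ednra at 3.30 RPKM and no overlap of their libraries. Ednrb also ranked above Ednra in P635L Tnpo3 (4.61 and 3.14 RPKM, without overlap) and in WT Tnpo3 (5.72 and 5.69 RPKM, overlapping). With the Tnpo3 virus in mutant hearts, Ace was at 21.7 ± 4.67 RPKM and Agtr1a at 8.90 ± 1.89 RPKM (SD, n = 4 each), again without overlap. Agt was last in 3 of the 4 groups, and in WT Tnpo3 it and Edn1 overlapped at 2.43 and 2.38 RPKM.

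**Figure D1:**
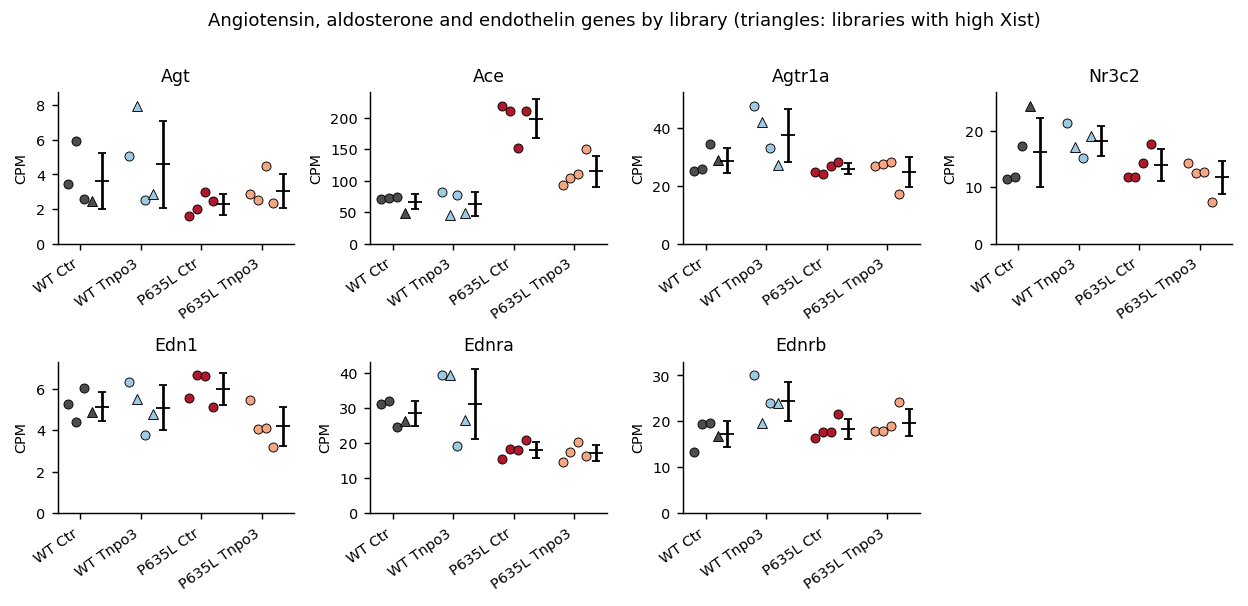
Normalised counts (CPM, linear axes from 0) of the 7 members in each of 16 libraries, with the mean and SD of each group of 4 mice beside the points and triangles for libraries with high Xist. Ace spans 152 to 219 CPM in P635L Ctr against 48.9 to 74.0 CPM in WT Ctr, while Ednra spans 15.3 to 20.8 CPM against 24.6 to 32.0 CPM.

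P635L Ctr against WT Ctr gives the difference that goes with the mutation under the control virus. The converting enzyme Ace was 2.98-fold higher in mutant hearts and the receptor Ednra was at 0.635 of its wild-type level. The substrate Agt, the AT1 receptor Agtr1a, the mineralocorticoid receptor Nr3c2, the peptide Edn1 and the receptor Ednrb did not pass the test. So 2 of 7 members were called at an edgeR adjusted p under 0.05, 1 higher and 1 lower, where 14.2% of all 18662 genes tested were called (7.07% higher, 7.14% lower). The libraries of both groups did not overlap for the same 2 members, against 19.1% of all genes. The median log2 fold change of the members was -0.15, beside -0.05 over all genes.

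P635L Tnpo3 against P635L Ctr gives the difference that goes with the Tnpo3 virus in mutant hearts. Ace fell to 0.579 of its level with the control virus and was the 1 member of 7 called, where 3.88% of all genes were called (1.63% higher, 2.25% lower). Its libraries were also the only ones of a member that did not overlap, against 20.4% of all genes. The median over the members was -0.07, beside 0.01 over all genes.

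Against WT Ctr, P635L Tnpo3 hearts again had more Ace (1.73-fold) and less Ednra (0.604 of the wild-type level), 2 of 7 members beside 3.07% of all genes called (1.49% higher, 1.58% lower). Against WT Tnpo3, the comparison of genotypes under the Tnpo3 virus, Ace was 1.83-fold higher and Ednra at 0.552, again 2 of 7 members, beside 3.72% of all genes (1.72% higher, 2% lower). At an unadjusted p under 0.05, 4 of 7 members passed there (Ace, Ednra, Agtr1a and Nr3c2), beside 20.1% of all genes. These comparisons share libraries with those above, so they are not separate evidence.

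In wild-type hearts the Tnpo3 virus changed 0 of 7 members by edgeR at an adjusted p under 0.05, where 0.00536% of all genes (1 gene, Tnpo3 itself) were called, and 0 by DESeq2, where 0.0214% were. At an unadjusted p under 0.05, 2 members passed, Ednrb and Agtr1a, beside 3.2% of all genes. The interaction of virus and genotype, a test of unequal virus effects in mutant and wild-type hearts, was called for 0 of 7 members by edgeR, beside 0.504% of all genes, and for 0 by DESeq2, beside 2.22%. At an unadjusted p under 0.05 Ace passed alone among the members, beside 12.4% of all genes. The median interaction of the members was -0.41, beside 0.04 over all genes.

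**Figure D2:**
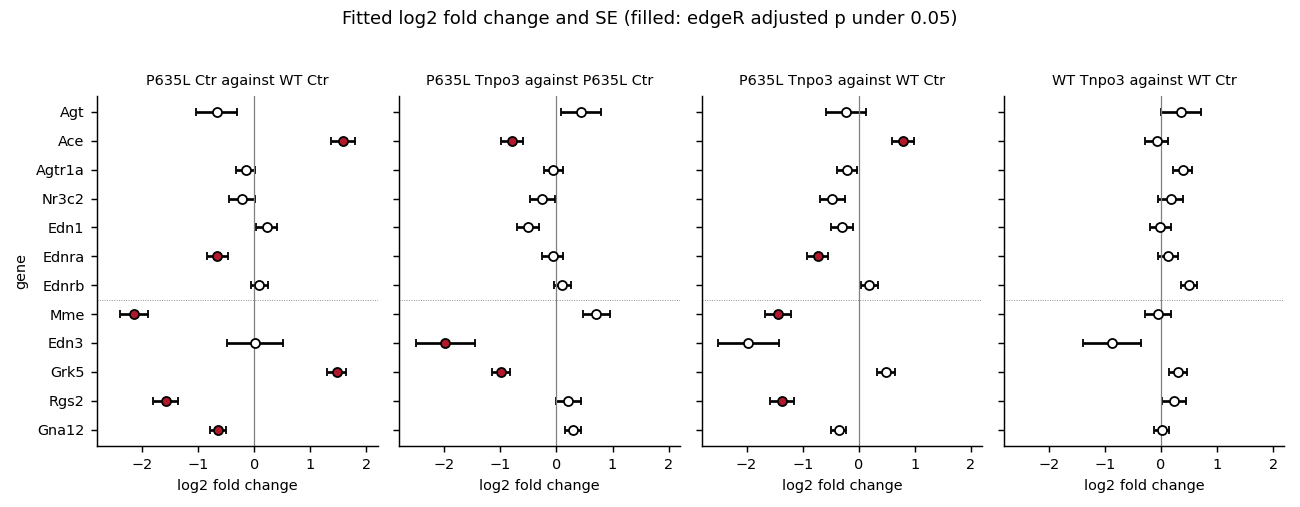
Fitted log2 fold changes (x axis) with their standard errors for the 7 members and, under the dotted line, 5 other pathway genes, in 4 comparisons; filled points have an edgeR adjusted p under 0.05. Ace is filled at 1.58, -0.79 and 0.79 in the comparisons that involve mutant hearts, Ednra is filled at -0.66 and -0.73, and no point is filled for WT Tnpo3 against WT Ctr.

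Agt (ENSMUSG00000031980, chromosome 8, 125283273 to 125296445, minus strand; coordinates of counted genes are on GRCm39, the build in the submitters' processing notes) encodes the substrate of the system, which is made mainly in liver. It was at 3.47, 5.94, 2.60 and 2.46 CPM in WT Ctr replicates 1 to 4 and at 5.07, 7.97, 2.52 and 2.84 CPM in WT Tnpo3. P635L Ctr had 1.61, 2.01, 3.01 and 2.45 CPM, and P635L Tnpo3 had 2.88, 2.50, 4.51 and 2.37 CPM. The wild-type groups were the more scattered, and replicate 2 was the highest library in each of them. The log2 fold change was -0.67 (SE 0.36, adjusted p = 0.242 by edgeR) with the mutation and 0.44 (SE 0.36, adjusted p = 0.574 by edgeR) with the Tnpo3 virus in mutant hearts, both within overlapping groups. A library held 70 to 316 reads of Agt.

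Ace (ENSMUSG00000020681, chromosome 11, 105858771 to 105880790, plus strand) encodes the enzyme that makes angiotensin II and breaks down bradykinin, and in the heart it is carried mainly by endothelial cells. RefSeq lists 2 starts for the gene, 7241 bases apart on GRCm38.p6. An internal promoter of Ace is known for a shorter form in testis. The counts sum all exons and do not separate the starts. The 250 bases before each start are shown because Ace was the member that differed most between groups. Capitals in the first sequence mark matches to the GC box letters GGGCGG and to TTTATA, which is the TATA box letters TATAAA read on the other strand. The letters searched on both strands were TATAAA for the TATA box, GGGCGG for the GC box, TGANTCA for AP-1, TGTTCT for steroid receptors and CACGTG for the E-box.
Ace first start, GRCm38.p6, chr11:105967698-105967947, plus strand: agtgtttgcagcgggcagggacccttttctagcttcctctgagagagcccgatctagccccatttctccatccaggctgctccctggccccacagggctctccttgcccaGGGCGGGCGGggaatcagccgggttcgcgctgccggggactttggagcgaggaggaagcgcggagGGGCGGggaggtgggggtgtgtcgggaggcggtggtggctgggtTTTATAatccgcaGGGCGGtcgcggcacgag
Ace second start, GRCm38.p6, chr11:105974939-105975188, plus strand: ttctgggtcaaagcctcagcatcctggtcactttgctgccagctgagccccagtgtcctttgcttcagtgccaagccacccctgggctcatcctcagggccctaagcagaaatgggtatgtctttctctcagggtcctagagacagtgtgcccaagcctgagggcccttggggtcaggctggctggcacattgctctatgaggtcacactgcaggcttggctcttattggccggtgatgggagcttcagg
The first window has a GC content of 67.2% and holds GGGCGG at 140, 136, 75 and 18 bases before the start, the first 2 of them overlapping, and the TATA letters at 31 bases before it. The second window has a GC content of 58.0% and none of the searched letters. Of 32851 such windows in the RefSeq table, 32.7% hold GGGCGG, 12.4% hold TATAAA, 6.75% hold TGANTCA, 16.1% hold TGTTCT and 6.02% hold CACGTG, and their median GC content is 52.4%. A match describes these letters and is not a site shown to be bound.

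In WT Ctr, Ace was at 70.7, 72.1, 74.0 and 48.9 CPM. WT Tnpo3 hearts had 81.3, 44.9, 76.5 and 47.8 CPM. The wild-type libraries fall into separate ranges: the 3 with high Xist read 44.9 to 48.9 CPM and the other 5 read 70.7 to 81.3 CPM. In P635L Ctr, where 0 libraries had high Xist, Ace was at 219, 211, 152 and 211 CPM. P635L Tnpo3 hearts had 93.8, 104, 111 and 150 CPM. Each mutant library lay above each wild-type library, and each P635L Tnpo3 library lay below each P635L Ctr library, the nearest pair being 150 and 152 CPM.

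From these values, Ace went from 66.4 ± 11.8 CPM in WT Ctr to 198 ± 31.2 CPM in P635L Ctr (SD, n = 4 each), which is 1.58 on the log2 scale (SE 0.21, adjusted p = 5.02e-05 by edgeR). This call held in 17 of 17 alternative settings, with 1.43 to 1.69 on the log2 scale. The exact permutation p (two-sided) was 0.0286, the least that 70 assignments of 4 against 4 libraries can give. With the Tnpo3 virus in mutant hearts the level was 115 ± 24.7 CPM (SD, n = 4), a log2 change of -0.79 (SE 0.20, adjusted p = 0.0373 by edgeR; exact p = 0.0286) from P635L Ctr. That level was still 0.79 (SE 0.20, adjusted p = 0.0428 by edgeR) above WT Ctr on the log2 scale and 0.87 (SE 0.20, adjusted p = 0.025 by edgeR) above WT Tnpo3. In wild-type hearts the virus moved Ace by -0.08 (SE 0.20, adjusted p = 1 by edgeR), and the interaction of -0.71 (SE 0.29, adjusted p = 0.327 by edgeR) was not called, so a difference of the virus effect between genotypes was not shown.

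The call against P635L Ctr was the less firm: leaving out any 1 of P635L Ctr replicates 1, 2 and 4 or P635L Tnpo3 replicates 1, 2 and 3 gave log2 changes of -0.77 to -0.71 with adjusted p-values of 0.11 to 0.12, and fitting without the filter on low counts gave -0.79 (adjusted p = 0.0555 by edgeR). Against WT Ctr, the excess in P635L Tnpo3 was no longer called without any 1 of 7 libraries (WT Ctr replicates 1 to 4 and P635L Tnpo3 replicates 2 to 4; 0.63 to 0.87, edgeR adjusted p-values 0.0502 to 0.176) or without the 3 libraries dominated by 1 gene (0.70, adjusted p = 0.187 by edgeR). Against WT Tnpo3 it was no longer called without the high-Xist libraries (0.55, adjusted p = 0.123 by edgeR), with high Xist as a covariate (0.58, adjusted p = 0.0647 by edgeR), in a fit of the groups compared alone (0.87, adjusted p = 0.0507 by edgeR), or without any 1 of WT Tnpo3 replicate 2 (0.75, adjusted p = 0.0823 by edgeR), P635L Tnpo3 replicate 3 (0.89, adjusted p = 0.0505 by edgeR) and P635L Tnpo3 replicate 4 (0.71, adjusted p = 0.108 by edgeR).

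Markers of the cells that carry Ace or lie beside them were read in the same libraries. The summed level of 6 endothelial markers (Pecam1, Cdh5, Kdr, Tie1, Tek and Emcn) was 941 to 1090 CPM in WT Ctr, 847 to 991 CPM in P635L Ctr and 912 to 1030 CPM in P635L Tnpo3. Of these 6, 0 were called with the mutation or with the Tnpo3 virus in mutant hearts, beside 14.2% and 3.88% of all genes. Their median log2 changes were -0.07 and -0.01, beside -0.05 and 0.01 over all genes. Most fibroblast markers moved in the same directions as Ace in these comparisons. Of Pdgfra, Col1a1, Col3a1, Dpt, Tcf21 and Lum, 4 of 6 were called higher with the mutation, where 7.07% of all genes were. Their median log2 change was 0.77, beside -0.05 over all genes. With the Tnpo3 virus in mutant hearts 3 of 6 were called lower, where 2.25% of all genes were (median -0.78, beside 0.01 over all genes). In P635L Tnpo3 against WT Ctr, where Ace was called higher, 0 of 6 fibroblast markers were called (median -0.01), beside 3.07% of all genes. The fibroblast sum ran from 523 to 987 CPM in WT Ctr, 673 to 1140 CPM in P635L Ctr and 533 to 800 CPM in P635L Tnpo3. P635L Ctr replicate 3, the library lowest in Ace in its group, was also the lowest in this sum. In each other group the library lowest in Ace was not the lowest in this sum. In both mutant groups the library highest in Ace was also the highest in this sum (P635L Ctr replicate 1, Ace 219 CPM, and P635L Tnpo3 replicate 4, Ace 150 CPM). In both wild-type groups the library highest in Ace was the lowest in this sum (WT Ctr replicate 3, Ace 74.0 CPM, and WT Tnpo3 replicate 1, Ace 81.3 CPM). The part of fibroblast content in the Ace result was not tested.

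**Figure D3:**
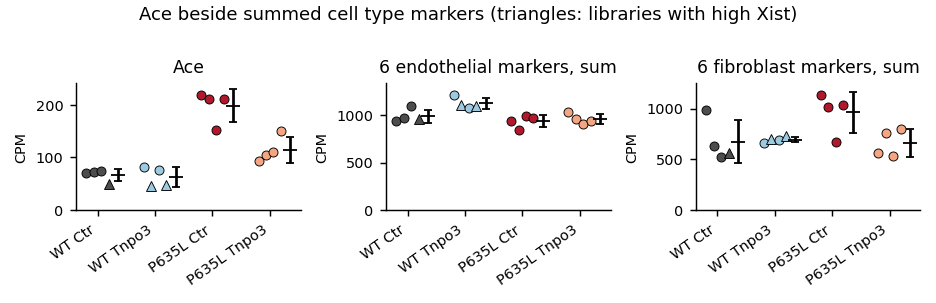
Ace (CPM) beside the summed CPM of 6 endothelial and 6 fibroblast markers in each library, on linear axes from 0, with the mean and SD of each group of 4 and triangles for libraries with high Xist. The endothelial sum stays between 847 and 1210 CPM in all libraries, while the fibroblast sum reaches 1140 CPM in P635L Ctr.

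Agtr1a (ENSMUSG00000049115, chromosome 13, 30520424 to 30566850, plus strand) encodes the main receptor of angiotensin II. Its near copy Agtr1b had 0 counts in all libraries, so no reads were assigned to that copy. Agtr1a was at 25.2, 25.9, 34.5 and 29.0 CPM in WT Ctr and at 24.7, 23.9, 26.8 and 28.3 CPM in P635L Ctr. WT Tnpo3 hearts had 47.6, 42.1, 32.9 and 27.2 CPM, and P635L Tnpo3 hearts had 26.7, 27.4, 28.1 and 17.0 CPM. WT Tnpo3 replicates 1 and 2 were the highest of the 16 libraries, and the other groups overlapped one another. The log2 fold change was -0.15 (SE 0.17, adjusted p = 0.624 by edgeR) with the mutation and -0.06 (SE 0.17, adjusted p = 0.895 by edgeR) with the virus in mutant hearts. In wild-type hearts it was 0.39 (SE 0.17, unadjusted p = 0.0396 by edgeR, adjusted p = 1 by edgeR). P635L Tnpo3 against WT Tnpo3 gave -0.59 (SE 0.17, adjusted p = 0.0628 by edgeR), which was called in 4 of 17 alternatives: by DESeq2 (-0.60, DESeq2 adjusted p = 0.0217, beside 7.81% of all genes), without the libraries dominated by 1 gene (-0.72, adjusted p = 0.0196 by edgeR), and without WT Tnpo3 replicate 3 (-0.65, adjusted p = 0.0471 by edgeR) or replicate 4 (-0.72, adjusted p = 0.0164 by edgeR).

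Nr3c2 (ENSMUSG00000031618, chromosome 8, 77626070 to 77971641, plus strand), the mineralocorticoid receptor, was at 11.4, 11.7, 17.2 and 24.4 CPM in WT Ctr and at 21.3, 17.1, 15.2 and 19.1 CPM in WT Tnpo3. In P635L Ctr it was at 11.7, 11.8, 14.3 and 17.7 CPM, and in P635L Tnpo3 at 14.3, 12.5, 12.6 and 7.42 CPM. WT Ctr spanned the range of P635L Ctr, and the highest WT Ctr library was the one with high Xist. The log2 fold change was -0.22 (SE 0.23, adjusted p = 0.568 by edgeR) with the mutation and -0.25 (SE 0.23, adjusted p = 0.638 by edgeR) with the virus in mutant hearts. Under the Tnpo3 virus the mutant libraries lay below the wild-type ones without overlap (exact p = 0.0286), as they did in 11.5% of all genes when both directions are counted, but the fitted change of -0.64 (SE 0.23, adjusted p = 0.135 by edgeR) was not called.

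Edn1 (ENSMUSG00000021367, chromosome 13, 42454952 to 42461466, plus strand), the endothelin-1 precursor, was at 5.25, 4.37, 6.03 and 4.87 CPM in WT Ctr and at 6.31, 5.52, 3.77 and 4.76 CPM in WT Tnpo3. It was at 5.55, 6.64, 6.59 and 5.11 CPM in P635L Ctr and at 5.44, 4.05, 4.09 and 3.18 CPM in P635L Tnpo3. The highest P635L Tnpo3 library exceeded the lowest P635L Ctr library, and 3 of 4 lay below that group. The change was 0.22 on the log2 scale (SE 0.19, adjusted p = 0.481 by edgeR) with the mutation. With the virus in mutant hearts it was -0.51 (SE 0.19, unadjusted p = 0.0137 by edgeR, adjusted p = 0.145 by edgeR; exact p = 0.0571), which did not pass the adjustment.

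Ednra (ENSMUSG00000031616, chromosome 8, 78389660 to 78451093, minus strand) encodes the ETA receptor, which mediates constriction by endothelin-1. The 250 bases before its RefSeq start are shown because Ednra was the receptor that differed between genotypes. They have a GC content of 54.8% and hold none of the searched letters, so no base is in capitals.
Ednra, GRCm38.p6, chr8:77724453-77724702, minus strand: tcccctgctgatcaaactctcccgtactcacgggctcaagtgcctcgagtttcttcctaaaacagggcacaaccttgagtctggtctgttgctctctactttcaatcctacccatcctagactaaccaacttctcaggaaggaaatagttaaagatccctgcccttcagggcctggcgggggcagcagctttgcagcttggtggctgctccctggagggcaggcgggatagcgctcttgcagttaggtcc
Ednra was at 31.0, 32.0, 24.6 and 26.3 CPM in WT Ctr. P635L Ctr hearts had 15.3, 18.3, 17.9 and 20.8 CPM, and P635L Tnpo3 hearts had 14.7, 17.5, 20.3 and 16.2 CPM. WT Tnpo3 was the most scattered group, at 39.3, 39.3, 19.2 and 26.7 CPM. Both mutant groups covered the same range and lay below WT Ctr, while WT Tnpo3 replicate 3 lay within the mutant range.

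The Ednra level went from 28.5 ± 3.59 CPM in WT Ctr to 18.1 ± 2.22 CPM in P635L Ctr (SD, n = 4 each), which is -0.66 on the log2 scale (SE 0.19, adjusted p = 0.0231 by edgeR; exact p = 0.0286). The call was lost in 6 of 17 alternatives: without any 1 of WT Ctr replicates 1 and 2 and P635L Ctr replicates 1, 2 and 3 (-0.65 to -0.57, edgeR adjusted p-values 0.0538 to 0.0825), and without the libraries dominated by 1 gene (-0.58, adjusted p = 0.122 by edgeR). With the Tnpo3 virus, mutant hearts had 17.2 ± 2.41 CPM (SD, n = 4), a log2 difference of -0.07 (SE 0.18, adjusted p = 0.889 by edgeR) from P635L Ctr. Their level was -0.73 (SE 0.19, adjusted p = 0.0403 by edgeR) from WT Ctr, a call lost in 10 of 17 alternatives with adjusted p-values up to 0.204. It was -0.86 (SE 0.19, adjusted p = 0.0156 by edgeR; exact p = 0.0571) from WT Tnpo3, a call lost in 7 of 17 with adjusted p-values up to 0.0883. The libraries whose removal ended the call against WT Ctr were WT Ctr replicates 1, 2 and 4 and P635L Tnpo3 replicates 1, 2 and 4 (-0.76 to -0.64, edgeR adjusted p-values 0.0606 to 0.134). For the call against WT Tnpo3 they were WT Tnpo3 replicates 1 and 2 and P635L Tnpo3 replicates 1 and 4 (-0.83 to -0.72, edgeR adjusted p-values 0.052 to 0.0695).

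Ednra shares 91 exon bases with 4933431K23Rik, on the other strand, whose mean level was 5.20 CPM in WT Ctr against 3.64 CPM in P635L Ctr. The libraries were stranded, but whether the counting used strand is not given in the sources used here, so reads over these bases are uncertain. Among cell types that carry Ednra, the summed level of 6 heart muscle markers ran from 57100 to 67300 CPM in WT Ctr and from 41200 to 44900 CPM in P635L Ctr. Of these, 2 of 6 were called lower, beside 7.14% of all genes. The sum of 4 smooth muscle markers was 131 to 208 CPM and 124 to 191 CPM in those groups. Of these, 0 of 4 were called, beside 14.2% of all genes. That of 5 pericyte markers was 381 to 588 CPM and 342 to 410 CPM, with 1 of 5 called lower, beside 7.14% of all genes. Sums of the 6 fibroblast markers went the other way, at 523 to 987 CPM in WT Ctr and 673 to 1140 CPM in P635L Ctr. Of these, 4 of 6 were called higher, beside 7.07% of all genes. The part of all these markers in the Ednra result was not tested.

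Ednrb (ENSMUSG00000022122, chromosome 14, 104052061 to 104081838, minus strand) encodes the ETB receptor, which in endothelial cells leads to nitric oxide release and clears endothelin. It was at 13.3, 19.3, 19.6 and 16.7 CPM in WT Ctr and at 16.4, 17.7, 17.7 and 21.6 CPM in P635L Ctr, groups that overlapped, and at 17.8, 17.9, 18.9 and 24.1 CPM in P635L Tnpo3. WT Tnpo3 hearts had 30.0, 19.6, 24.0 and 23.9 CPM, each above the WT Ctr libraries, with the nearest pair rounding to 19.6 CPM in both groups. The log2 fold change was 0.09 (SE 0.15, adjusted p = 0.741 by edgeR) with the mutation and 0.10 (SE 0.15, adjusted p = 0.793 by edgeR) with the virus in mutant hearts. In wild-type hearts it was 0.50 (SE 0.15, unadjusted p = 0.00397 by edgeR; exact p = 0.0286), with an edgeR adjusted p of 1. Non-overlap of these groups in either direction occurred in 1.09% of all genes. Summed endothelial markers were also higher there, at 1080 to 1210 CPM in WT Tnpo3 against 941 to 1090 CPM in WT Ctr. Of these, 0 of 6 were called, beside 0.00536% of all genes, and 6 of 6 were positive. The part of these markers in the Ednrb values was not tested. The interaction for Ednrb was -0.40 (SE 0.21, adjusted p = 0.459 by edgeR).

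Other genes of the same systems were read from a list of 52, of which 42 were tested. The other 10 had few or no reads: Agtr1b, Ctsg, Cyp11b1 and Cyp11b2, the last of which makes aldosterone, had 0 counts in all 16 libraries. Renin (Ren1) had at most 9 counts and reads in 3 libraries, and the AT2 receptor Agtr2 had at most 2 counts, in 1 library. With the mutation, 1 of 42 rose and 3 fell by edgeR, where 7.07% of all genes were called higher and 7.14% lower (medians -0.11 for the list and -0.05 for all genes). In either direction 4 of 42 were called, beside 14.2% of all genes. Of 11 angiotensin genes, 0 rose and 1, Mme, fell. Of 17 genes of receptor signalling, Grk5 rose and Gna12 and Rgs2 fell. Among 11 aldosterone genes 0 were called by edgeR, with Lcn2, Nedd4l and Zbtb16 at an unadjusted p under 0.05, beside 28.1% of all genes (these 3 are named after their values were seen). Lcn2, at an edgeR adjusted p of 0.0507, was called by DESeq2 fitted to all 16 libraries (-1.23, adjusted p = 0.0184), beside 18.2% of all genes. It was also called by edgeR with the replicate block (adjusted p = 0.0324) and with the Xist covariate (adjusted p = 0.0211). The same held without the libraries dominated by 1 gene (edgeR adjusted p = 0.0211) or with high Xist (edgeR adjusted p = 0.0106). Lcn2 was not called with either other scaling, without the filter on low counts or in a fit of the compared groups alone. Its groups overlapped, at 5.32, 3.47, 1.48 and 1.07 CPM in WT Ctr and 0.754 to 1.64 CPM in P635L Ctr (exact permutation p = 0.2). Zbtb16 overlapped too, at 7.38, 24, 7.07 and 78 CPM in WT Ctr and 3.69 to 9.35 CPM in P635L Ctr (exact permutation p = 0.114). Its highest WT Ctr libraries, replicates 2 and 4, were those dominated by 1 gene. In the authors' deposited table Lcn2 has an adjusted p of 0.051, and Zbtb16 passes (-2.20, adjusted p = 0.0498). Mcpt4 (-1.23, DESeq2 adjusted p = 0.0435) and Itpr2 (-0.42, DESeq2 adjusted p = 0.0433) pass there too, but not by edgeR here. Edn2, not tested by edgeR here, also passes there (5.42, DESeq2 adjusted p = 0.00132). These genes are named after their values were seen, and 3378 of 25226 rows of that table pass. Among the 3 endothelin genes tested here 0 were called by either tool, with 0 at an unadjusted p under 0.05. With the Tnpo3 virus in mutant hearts, 0 of 42 rose and 2 fell by edgeR, the peptide gene Edn3 and Grk5, where 1.63% of all genes were called higher and 2.25% lower. DESeq2 called Mme higher as well, where it called 7.44% of all genes in either direction.

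Mme (ENSMUSG00000027820, chromosome 3, 63148958 to 63293451) encodes neprilysin, a peptidase that degrades natriuretic peptides, bradykinin and angiotensins. It was at 6.33 to 8.33 CPM in WT Ctr, 5.45 to 8.41 CPM in WT Tnpo3, 1.15 to 2.19 CPM in P635L Ctr and 1.78 to 3.78 CPM in P635L Tnpo3, so that each mutant library lay below each wild-type library. The log2 fold change was -2.14 (SE 0.25, adjusted p = 9.24e-06 by edgeR) with the mutation and -1.44 (SE 0.24, adjusted p = 0.0021 by edgeR) in P635L Tnpo3 against WT Ctr. Between the mutant groups it was 0.71 (SE 0.24, adjusted p = 0.114 by edgeR), which was not called, while DESeq2 called it (0.72, DESeq2 adjusted p = 0.0492).

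Grk5, a kinase that desensitises receptors coupled to G proteins, was called higher with the mutation and lower with the Tnpo3 virus in mutant hearts, and was the 1 pathway gene of 42 called in the interaction, beside 0.504% of all genes. It was at 36.6, 43.7, 25.0 and 36.4 CPM in WT Ctr, 47.0, 54.3, 32.1 and 42.0 CPM in WT Tnpo3, 93.0, 96.6, 93.6 and 108 CPM in P635L Ctr and 53.9, 48.4, 41.5 and 53.4 CPM in P635L Tnpo3. Only the P635L Ctr libraries stood apart. The log2 fold change was 1.47 (SE 0.17, adjusted p = 8.27e-06 by edgeR) with the mutation and -0.99 (SE 0.16, adjusted p = 0.00208 by edgeR) with the Tnpo3 virus in mutant hearts. Its interaction was -1.30 (SE 0.23, adjusted p = 0.0115 by edgeR).

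Rgs2, an inhibitor of Gq signalling, was at 13.1 to 25.0 CPM in WT Ctr, 21.0 to 35.8 CPM in WT Tnpo3, 5.65 to 8.74 CPM in P635L Ctr and 6.51 to 9.08 CPM in P635L Tnpo3. Its log2 fold change was -1.58 with the mutation (SE 0.22, adjusted p = 9.75e-05 by edgeR), and 0.21 with the virus in mutant hearts (SE 0.22, adjusted p = 0.674 by edgeR). Gna12, the alpha subunit of a heterotrimeric G protein, was at 117 to 158 CPM in WT Ctr and 75.0 to 97.4 CPM in P635L Ctr, a log2 change of -0.65 (SE 0.14, adjusted p = 0.00424 by edgeR). It shares 456 exon bases with Amz1 on the other strand, which reached 6.22 CPM. Edn3, which encodes endothelin-3, was at 3.09, 3.78, 2.71 and 1.90 CPM in P635L Ctr and at 0.854, 0.668, 0.311 and 1.08 CPM in P635L Tnpo3. That log2 change of -1.98 (SE 0.53, adjusted p = 0.0471 by edgeR) was lost in 9 of 17 alternatives: without any 1 of the 8 libraries (-2.24 to -1.73, edgeR adjusted p-values 0.0554 to 0.145) and without the filter on low counts (-1.99, adjusted p = 0.122 by edgeR). WT Ctr hearts spanned 1.07 to 6.31 CPM of Edn3, around the whole P635L Ctr group, and overlapped P635L Tnpo3 by 1 library at 1.07 against 1.08 CPM. P635L Tnpo3 against WT Ctr gave -1.97 (SE 0.54, adjusted p = 0.0576 by edgeR), which was called by DESeq2 (-1.96, DESeq2 adjusted p = 0.0046, beside 6.08% of all genes), without the high-Xist libraries (-2.20, adjusted p = 0.0207 by edgeR) and with the Xist covariate (-2.13, adjusted p = 0.0283 by edgeR). The authors' deposited table gives -1.95 (adjusted p = 0.008).

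**Figure D4:**
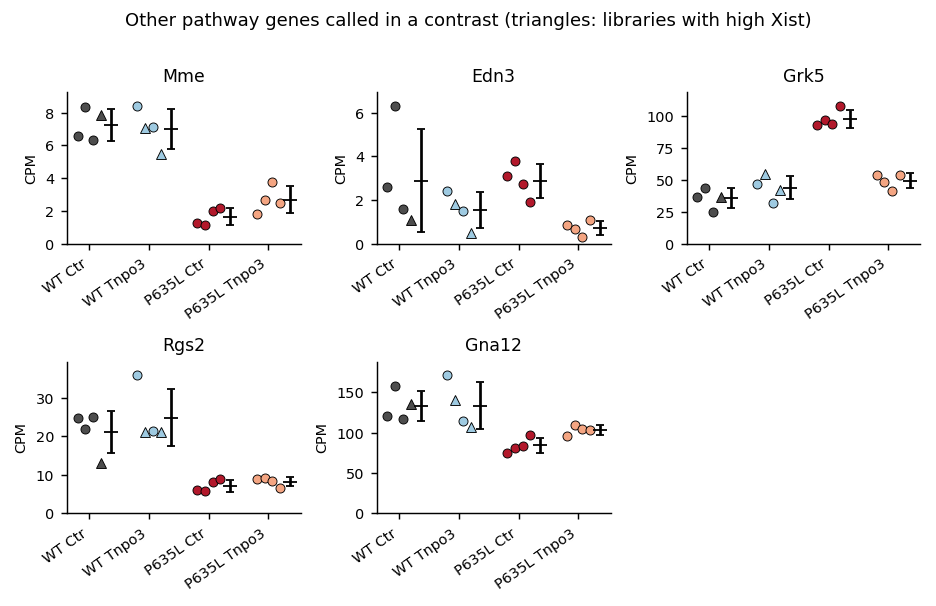
Normalised counts (CPM, linear axes from 0) of the 5 other pathway genes called in at least 1 comparison, by library, with the mean and SD of each group of 4 and triangles for libraries with high Xist. Mme and Rgs2 are low in both mutant groups, while Grk5 is above 90 CPM in P635L Ctr alone.

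The authors' deposited table of DESeq2 results, made on the same libraries, gives Ace a log2 fold change of 1.59 (SE 0.17, adjusted p = 1.93e-18) and Ednra -0.64 (SE 0.14, adjusted p = 0.000141) in P635L Ctr against WT Ctr. For P635L Tnpo3 against WT Ctr the authors' deposited table gives Ace 0.82 (SE 0.18, adjusted p = 0.000582) and Ednra -0.70 (SE 0.15, adjusted p = 0.000175). The other 5 members are above an adjusted p of 0.05 in the authors' deposited table for these comparisons, as are 7 of 7 in WT Tnpo3 against WT Ctr.

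Exon use was read from the authors' deposited rMATS tables, which list 8 events in member genes for P635L Ctr against WT Ctr, 6 for P635L Tnpo3 against WT Ctr and 7 for WT Tnpo3 against WT Ctr. To be called, an event needed a false discovery rate under 0.05, inclusion that differed by 0.1 or more, and 10 or more junction reads per library on average in each group. In member genes 0 events were called in any of the 3 tables, where 1.97%, 1.65% and 0.731% of all events were, and 0 passed on the false discovery rate alone. The best covered was a skipped exon of Ace (chromosome 11, 105875871 to 105876094), included in a fraction of 1.000 of junction reads in WT Ctr and 0.999 in P635L Ctr, with means of 223 and 1335 reads. An Agtr1a exon (chromosome 13, 30521573 to 30521674) had fractions of 0.0103 and 0.00675 in these groups, with 23 and 47.5 reads. Events of Nr3c2 had means of at most 13.2 reads, too few to read a fraction closely.

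Across the 16 libraries, the genes most alike to each member in log2 CPM were ranked by Pearson's r among 12489 genes whose log2 CPM averaged 1 or more. The libraries span 4 groups, so differences between groups are part of each r. Ace was most like Myl12a (r = 0.966), Paxx (0.956) and Jpt1 (0.954). Ednra was most like Nipal3 (r = 0.941), Srl (0.940) and Atp6v0a2 (0.940). For Nr3c2 the closest were Dsg2 (r = 0.952), Fbxo10 (0.913) and Dip2c (0.898), and for Agtr1a they were Tcp11l2 (r = 0.912), Cav2 (0.907) and Mef2a (0.894). Agt was most like Tuba8 (r = 0.917), Ttc19 (0.900) and Lingo3 (0.895). The endothelin peptide and its ETB receptor had looser partners: Tmtc4 (r = 0.833), Lztfl1 (0.824) and Usp28 (0.792) for Edn1, and Arrdc3 (r = 0.797), Itga6 (0.761) and Gabpa (0.717) for Ednrb. Among the members themselves, r was highest for Agt with Ednra (0.76) and Agtr1a with Nr3c2 (0.75), and lowest for Ace with Ednra (-0.68). The ligand Edn1 had an r of 0.22 with Ednra and -0.21 with Ednrb.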

How the data were processed

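Gene counts were deposited by the authors as raw counts per gene for 16 libraries, made with featureCounts 2.0.6 after STAR 2.7.9a on GRCm39, per the submitters' processing notes. The strand setting and annotation are not given in the sources used here. The authors' deposited DESeq2 tables give log2 fold changes with p-values and a mean normalised signal per gene, and their rMATS tables give p-values, junction counts, inclusion fractions and an inclusion difference, treated as a score, per the file headers.

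Counts were tested with edgeR 4.0.16 in R 4.3.3 (quasi-likelihood F test, robust fit, TMM factors, filterByExpr), with 1 mean per group over all 16 libraries and 12 residual degrees of freedom. Of 56953 genes, 18662 were tested, two-sided, with Benjamini-Hochberg adjustment over all of them, and a gene was called at an adjusted p under 0.05. CPM are TMM-normalised, and log2 CPM used a prior count of 2. Non-overlap means that every library of a group lies above every library of the other. Exact permutation tests used mean log2 CPM over 70 assignments, with p-values of at least 0.0286. Depth, from 28493249 to 85922669 counts per library, limits precision for the genes with few counts, such as Agt, Mme and Edn3. Alternatives were upper-quartile and median-ratio scaling, DESeq2 1.42.0, no filter on low counts, a replicate block, fits without libraries dominated by 1 gene or with high Xist, an Xist covariate, fits of the compared groups alone, and each library left out in turn. Sequences are RefSeq windows of GRCm38.p6 and matched 6 of 7 members.

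Named genes are the members, each gene of the pathway list called in a comparison, and the 3 genes most alike to each member. Other genes of the list are named at low counts or after their values were seen. 1 gene of the list is not reported here and is in none of its counts. The members and lists were chosen with earlier results of these data known.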

Additional observations from a re-analysis of the deposited data

Results flagged for a closer look

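In each group of 4 mice, the highest or lowest library was compared with its neighbours, for the 7 members and the 5 other pathway genes called in a comparison. A library stood apart in 4 of 48 groups, where chance gives about 1 in 20. Ace in WT Ctr replicate 4, a library with high Xist and 1 dominant gene, was at 48.9 CPM while the others were at 70.7 to 74.0 CPM. Ace in P635L Ctr replicate 3 was at 152 CPM while the others were at 211 to 219 CPM. Agtr1a in P635L Tnpo3 replicate 4 was at 17.0 CPM while the others were at 26.7 to 28.1 CPM. Rgs2 in WT Tnpo3 replicate 1 was at 35.8 CPM, above the others at 21.0 to 21.4 CPM.

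The effect of the Tnpo3 virus on Grk5 differed between genotypes by the interaction test, with a log2 interaction of -1.30.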

How the results depend on the processing

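Of the calls in the comparison of P635L Ctr with WT Ctr, those of Ace, Mme, Gna12, Grk5 and Rgs2 held in 17 of 17 alternatives. The count of members called, 2 there, was 1 without the libraries dominated by 1 gene and 1 to 2 with single libraries left out, and that of pathway genes, 4, was 8 without the dominated libraries, 8 without the high-Xist libraries and 4 to 7 with single libraries left out. For P635L Tnpo3 against P635L Ctr, the 1 member called became 0 without the filter on low counts and 0 with a replicate block, and 0 to 1 with single libraries left out; the 2 pathway genes became 1 without the filter, 8 in a fit of the compared groups alone and 1 with any single library left out. For P635L Tnpo3 against WT Ctr, the 2 members became 0 with the replicate block (Ace 0.80, adjusted p = 0.0736 by edgeR), 0 without the dominated libraries, 1 without the high-Xist libraries, 1 with the Xist covariate and 0 to 1 with single libraries left out. For P635L Tnpo3 against WT Tnpo3, the 2 members became 0 without the high-Xist libraries, 0 with the Xist covariate, 0 in a fit of the compared groups alone and 0 to 3 with single libraries left out; the 2 pathway genes became 5 by DESeq2, 7 without the dominated libraries and 2 to 4 with single libraries left out. The interaction count of 1, Grk5, became 0 without the high-Xist libraries (-1.19, adjusted p = 0.063 by edgeR). Some small fold changes that were never called changed sign. Without the high-Xist libraries these were Nr3c2 with the mutation (0.08) and, with the virus in wild type, Ace (0.16) and Agt (-0.04); with the Xist covariate Ace in wild type (0.05); without the dominated libraries Agt in P635L Tnpo3 against WT Ctr (0.05) and in the interaction (-0.38); and Edn1 in wild type with median-ratio scaling (0.01), DESeq2 (0.01) and no filter (0.01). With single libraries left out the ranges that crossed 0 were -0.36 to 0.04 for Nr3c2 and -0.01 to 0.17 for Ednrb with the mutation; -0.13 to 0.08 for Agtr1a, -0.16 to 0.00 for Ednra and -0.01 to 0.19 for Ednrb with the virus in mutant hearts; -0.48 to 0.13 for Agt in P635L Tnpo3 against WT Ctr; -0.23 to 0.07 for Ace, -0.02 to 0.73 for Agt and -0.13 to 0.11 for Edn1 with the virus in wild type; and -0.29 to 0.47 for Agt in the interaction. The cause of these shifts was not tested.

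The main fit did not take the replicate numbers to pair the libraries. To check this, the mean of each group was subtracted from the log2 CPM of each gene, and the remainders were correlated between libraries. These correlations therefore describe departures from the group means and not whole expression profiles. For same-numbered libraries they ran from -0.212 to 0.157 in P635L Ctr against WT Ctr. They ran from -0.058 to 0.141 in P635L Tnpo3 against P635L Ctr, where the replicate block gave Ace -0.78 (adjusted p = 0.0637 by edgeR). In 1 of 4 and 2 of 4 libraries the best match was the own number. In WT Tnpo3 against WT Ctr the correlations were higher, from 0.096 to 0.552, beside -0.33 to 0.21 for libraries of unlike number. There 3 of 4 libraries matched their own number best. Replicate 4 of both wild-type groups had high Xist and the dominant gene. Whether the numbers mark pairs in the wild-type groups was not tested. The block called 0 members in WT Tnpo3 against WT Ctr, as did the fit without it.

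Edn2, with 0 counts in the 4 WT Ctr libraries and 0.0684 to 0.359 CPM in P635L Ctr, did not pass the filter on low counts. It was therefore not tested in the main fit. For P635L Ctr against WT Ctr it was called when that filter, the dominated libraries or the high-Xist libraries were left out. The authors' deposited table passes it in that comparison as well (5.42, SE 1.38, DESeq2 adjusted p = 0.00132).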

Other observations

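In the authors' deposited rMATS tables, 2 of 96 events in the wider pathway list were called for P635L Ctr against WT Ctr (2.08%, beside 1.97% of all events), 0 of 99 for P635L Tnpo3 against WT Ctr and 0 of 90 for WT Tnpo3 against WT Ctr. Both were retained introns, named after their values were seen. In Plcb3, a phospholipase C of Gq signalling, an event on chromosome 19 (6932575 to 6933274) had a retained fraction of 0.073 in WT Ctr and 0.210 in P635L Ctr in the authors' deposited table (rMATS false discovery rate 0.00059, means of 33.2 and 60.0 junction reads). In Enpep, the aminopeptidase A that acts on angiotensin II, an event on chromosome 3 (129074334 to 129074624) had fractions of 0.179 and 0.0215 in the authors' deposited table (rMATS false discovery rate 0.00352, means of 16.2 and 24.8 junction reads). By library the Enpep fractions ran from 0.02 to 0.333 in WT Ctr and from 0 to 0.048 in P635L Ctr, so the groups overlapped. Those of Plcb3 ran from 0 to 0.137 and from 0.19 to 0.231, without overlap. Neither event passed at an absolute inclusion difference of at least 0.2.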
